A study of Mus musculus with 2 samples.

Results

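Serpins are a large protein family, and 59 protein-coding genes on the mouse autosomes whose symbol starts with Serpin, a clade letter from a to i and a number were examined here for CTCF binding in the newborn stomach. The members were taken from GENCODE release M21 (mm10), out of 20807 autosomal protein-coding genes. The 49 clustered members were 23 clade a genes on chromosome 12, 11 clade b genes on chromosome 1 and 15 clade b genes on chromosome 13. The other 10 members were called single, although Serpinf1 lies beside Serpinf2 on chromosome 11 and Serpini1 beside Serpini2 on chromosome 3. The samples were whole stomach tissue of B6NCrl mice at postnatal day 0, immunoprecipitated with an antibody to CTCF, in 1 group of 2 replicates with no mutation or treatment. Both replicates carry the same donor and the same tissue sample in the labels, so the spread between them may be technical. The stomach is a mixture of epithelium, muscle, nerve and blood cells, and a peak does not say in which of them CTCF was bound. No RNA was measured in this series. Serpina7, on the X chromosome, and Serpinb10, annotated as a polymorphic pseudogene, fall outside the rule, and neither had a peak within 10 kb.

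CTCF is a zinc finger protein that binds a long, directional DNA motif, and pairs of motifs that face each other often anchor chromatin loops. Most serpins are inhibitors that trap a protease by offering it a reactive loop and then changing shape around it, and some have become hormone carriers or chaperones. Clade a serpins are mostly secreted proteins of blood plasma, clade b serpins act mostly inside cells, and in the mouse several ancestral genes of both clades have been copied many times in tandem.

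The sequences below show the CTCF motif under the strongest peak of each cluster, under other strong peaks within 10 kb of a clustered member, and under the strongest motif-bearing peaks of 3 single members, since the rest of the results refer to these sites. The motif was learned from the 1000 strongest peaks of chromosome 4, which holds no serpin gene, and its consensus was TGGCCACCAGGGGGCGCTA over 19 positions. Both strands were searched within 50 bp of the summit. The threshold was set so that 1% of random windows passed, and 68.8% of autosomal peaks outside chromosome 4 passed it, against 1.80% of windows 1 kb away. Each line gives 29 bases of mm10, 5′ to 3′ on the strand named, with the 19 motif positions in capitals.
Clade a, 12098 bp from Serpina10 (chr12:103643532-103643560, reverse strand): ggcttTTGTCAGTAGAGGGCGCCAgagag
Clade a, Serpina11 upstream (chr12:103995489-103995517, forward strand): cttgcTTCCCAGCAGAGGGCGCCGaaacc
Clade b, 29725 bp from Serpinb2 (chr1:107481689-107481717, reverse strand): agttgTTTCCACTAGAGGGCAGGCgtctc
Clade b, Serpinb8 intron (chr1:107598666-107598694, reverse strand): ggcttTATCCACTAGATGTCAGTAgcaca
Clade b, Serpinb1c upstream (chr13:32903395-32903423, forward strand): tcccaTGACCACTAGGTGGCGCACgcaga
Clade b, Serpinb6a intron (chr13:33995389-33995417, reverse strand): tcagaCTGCCACCAGAGGGCAGCAgatgc
Single, Serpinf1 downstream (chr11:75407040-75407068, reverse strand): cacatAGGCCAGAAGAGGGCATCAgatcc
Single, Serpini1 upstream (chr3:75556833-75556861, forward strand): aatccTGCCCAGCAGGAGTCGCGCaaggc
Single, Serpine2 noncoding exon (chr1:79819607-79819635, forward strand): ttacaCTGCCAACAGAGGGCACCAgtagg
The Serpinb1c site scored 21.4 bits and the Serpinb6a site 22.3 bits, against a threshold of 10.1 bits. Between 10 and 15 of the 19 positions matched the consensus at the sites within 10 kb of a serpin TSS that carried the motif.

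Serpin genes had a CTCF peak within 10 kb less often than coding genes in general, and the gap was small at 50 kb. Of the 59 serpin genes, 19 (32.2%, exact 95% interval 20.6 to 45.6) had a peak of the authors' optimal list with its summit within 10 kb of a transcription start site (TSS), against 74.2% of all autosomal protein-coding genes. Among clustered members the count was 13 of 49 (26.5%, interval 14.9 to 41.1), and among single members it was 6 of 10 (60%, interval 26.2 to 87.8). The intervals cover counting error only, and no test was made between these groups, because neighbouring genes share their surroundings and are not replicates. Within 1 kb, 9 of the 59 serpin genes (15.3%, interval 7.22 to 27) had a peak, 5 of them clustered and 4 single, against 47% of all autosomal protein-coding genes. Within 50 kb, 86.4% of serpin genes had a peak, against 89.6% of all autosomal protein-coding genes. The gene just inside the 10 kb limit was Serpina3g, at 9032 bp, and the gene just outside it was Serpinb6c, at 10777 bp. The nearest peak lay at a median of 19.1 kb for clustered members, 5.49 kb for single members and 1.36 kb for all autosomal coding genes.

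**Figure D1:**
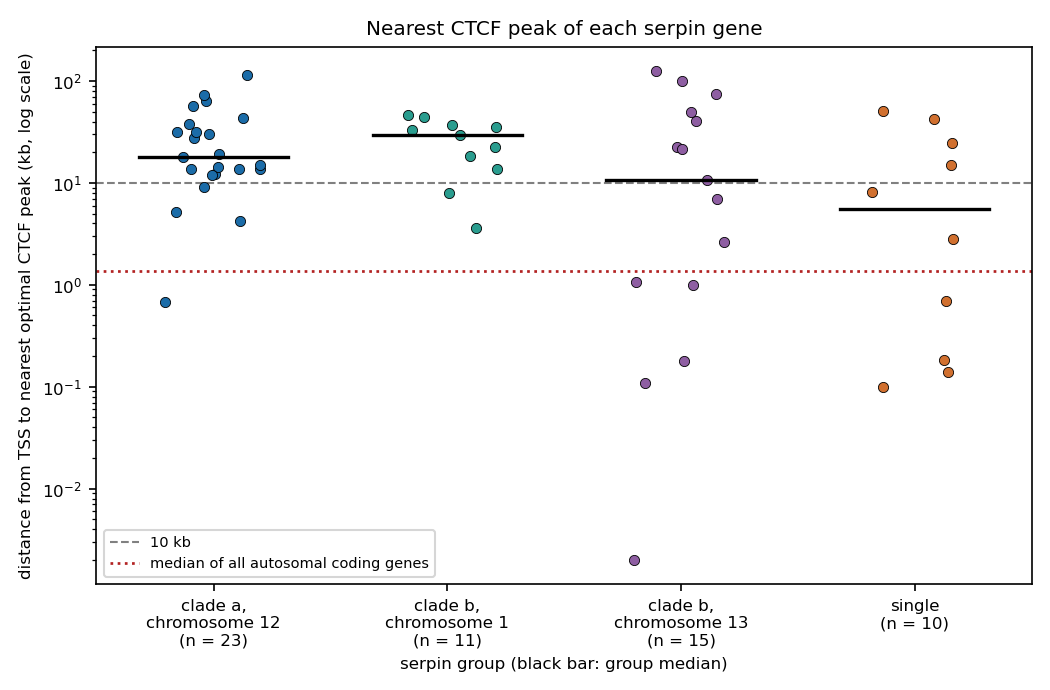
Distance in kb (log scale) from a TSS to the nearest optimal CTCF peak for each of the 59 serpin genes, one point per gene, by cluster or single location. Black bars are group medians, the dashed line is 10 kb and the dotted line is the median of all autosomal coding genes, 1.36 kb, which lies below all 4 group medians.

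In clade a on chromosome 12, 4 of 23 genes (17.4%) had a peak within 10 kb: Serpina11, Serpina9, Serpina3f and Serpina3g. Serpina11, a secreted serpin with little known about its targets, had 3 peaks, of signal 348 at 5548 bp upstream of its TSS, 229.8 at 4784 bp downstream in an intron and 56.3 at 679 bp downstream. The strongest of these lay in an untranslated region of the neighbouring Serpina9, which encodes a serpin of germinal centre B cells, with 189 in the replicate 1 list and 161 in the replicate 2 list. Serpina9 itself had only weak peaks within 10 kb, of signal 33.0 at 4199 bp upstream and 32.2 at 8750 bp downstream. Of the Serpina3 subgroup, mouse counterparts of the plasma inhibitor antichymotrypsin, only 2 of 10 genes had a peak within 10 kb. Serpina3g had a peak of 187 at 9032 bp downstream (121 and 67.1 in the replicate 1 and 2 lists), and Serpina3f one of 109.7 at 5196 bp upstream (69.3 and 40.8). The other Serpina3 genes (a, b, c, i, j, k, m and n) had none within 10 kb.

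None of the 6 Serpina1 genes, which encode α1-antitrypsin and its relatives, had a peak within 10 kb. Their nearest peaks lay 15 kb away for Serpina1f, 19.1 kb for Serpina1e, 27.6 kb for Serpina1b, 63.0 kb for Serpina1d, 73.1 kb for Serpina1c and 114 kb for Serpina1a. The same held for Serpina10, an inhibitor of coagulation factor X, for Serpina6, the corticosteroid carrier of plasma, and for Serpina16, Serpina12 (vaspin) and Serpina5 (protein C inhibitor). For Serpina10 and Serpina6 the nearest peak was the strongest of the whole clade a span, of signal 452 (239 and 215 in the replicate 1 and 2 lists), at 12.1 and 13.6 kb from their TSSs.

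In clade b on chromosome 1, 2 of 11 genes (18.2%) had a peak within 10 kb, Serpinb8 and Serpinb11. Serpinb8, an intracellular inhibitor of furin, had 3 peaks, all in introns, of signal 243 at 7201 bp upstream of an internal TSS (140.3 and 104 in the replicate 1 and 2 lists), 111 at 3616 bp downstream and 20.4 at 7032 bp downstream of the first TSS. All 3 carried the motif on the reverse strand. Serpinb11 had 1 peak of 123 at 7952 bp upstream (70.9 and 49.9). Serpinb5 (maspin) and the squamous cell carcinoma antigen counterparts Serpinb3a, Serpinb3b, Serpinb3c and Serpinb3d had no peak within 10 kb, nor did Serpinb2 (plasminogen activator inhibitor of the intracellular type), Serpinb7, Serpinb12 and Serpinb13. The peak closest to Serpinb5 lay 13.8 kb from its TSS, with a signal of 149, and the nearest to a Serpinb3 gene lay 33.4 kb away.

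In clade b on chromosome 13, 7 of 15 genes (46.7%) had a peak within 10 kb, and these included the strongest peak of any serpin gene. All 3 Serpinb1 genes, counterparts of the neutrophil elastase inhibitor of leukocytes, had at least 1 strong peak. Serpinb1c had 3 peaks upstream, of signal 513 at 5202 bp, 342 at 4442 bp and 216 at 2628 bp. The first of these ranked above 99.3% of the optimal list with 285 and 229 in the 2 replicate lists. Serpinb1a had 1 peak of 356 at 986 bp upstream (188 and 169). Serpinb1b had peaks of 286 at 4343 bp upstream, 254 at 1069 bp downstream and 154 at 1943 bp downstream.

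Serpinb9, an inhibitor of granzyme B, had a peak of 346 at 177 bp downstream of a TSS (197 and 150.3 in the replicate 1 and 2 lists), in an intron and with no motif above the threshold. Its paralogues were mostly without peaks: Serpinb9d had a peak of 32.1 at 6968 bp downstream, and Serpinb9b, Serpinb9c, Serpinb9e, Serpinb9f and Serpinb9g had none within 10 kb. Serpinb6b had a peak of 137 at 2 bp from a TSS (82.1 and 54.0). Serpinb6a, an intracellular inhibitor of trypsin-like proteases, had 5 peaks, of signal 406, 187, 167, 23.2 and 16.8. Its gene record reaches the neighbouring Ripk1, and the peaks of 406, 167, 23.2 and 16.8 were closer to a TSS of Ripk1 than to one of Serpinb6a, at 6966, 234, 1001 and 30 bp from it. Serpinb6c, Serpinb6d and Serpinb6e had none within 10 kb, with the nearest peak of Serpinb6c at 10.8 kb.

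Of the single members, 6 of 10 had a peak within 10 kb, and their signals were mostly low. Serpine2 (protease nexin), which inhibits thrombin and urokinase, had peaks of 31.6 at 698 bp downstream of a TSS and 22.5 at 141 bp upstream of another, both inside the gene. Serping1, the complement C1 inhibitor, had a peak of 122 at 3921 bp upstream (76.2 and 46.8) and one of 36.2 at 182 bp downstream, neither with the motif. Serpind1 (heparin cofactor), a thrombin inhibitor, had 1 peak of 27.8 at 2841 bp upstream, within an intron of Pi4ka (12.8 and 13.8).

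Serpini1 (neuroserpin), an inhibitor of tissue plasminogen activator in neurons, had 1 peak of 106 at 693 bp upstream (62.1 and 45.2), and the same summit lay 2 bp from a TSS of Pdcd10. Serpinh1, the collagen chaperone of the endoplasmic reticulum, inhibits no protease, and its 3 peaks of 32.7, 27 and 15.2 lay at 100, 926 and 3377 bp upstream with no motif in any. Serpinf1 (pigment epithelium-derived factor), a secreted protein that also inhibits no protease, had 1 peak of 229 (134 and 94.7). That summit lay 8146 bp downstream of an internal TSS, past the end of the gene, and was nearer to Smyd4, at 7440 bp. With the start of the gene record alone as TSS, 5 of the 10 single members had a peak within 10 kb, against 68.7% of all autosomal coding genes. Serpinc1 (antithrombin), Serpinf2 (α-antiplasmin), Serpini2 (a pancreatic serpin) and Serpine3 had no optimal peak within 10 kb, and their nearest peaks lay 42.8, 14.9, 50.7 and 24.4 kb away.

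The peaks of clustered members had a higher median signal than those of single members, although the ranges overlapped. The 36 distinct peaks, none shared by 2 serpin genes, had a median signal of 177 for the 26 of clustered members (range 16.8 to 513) and of 32.2 for the 10 of single members (range 15.2 to 229). The median over all autosomal peaks was 76.3. Above that median lay 19 of 26 peaks of clustered members and 3 of 10 of single members. Within 1 kb of a coding TSS lay 6 of 26 peaks of clustered members (23.1%) and 6 of 10 of single members (60%). The share was 37.9% of all peaks within 10 kb of an autosomal coding TSS, outside chromosome 4. The strongest peak of each gene had a signal in both replicate lists for all 19 genes. The replicate 1 value was the higher for each of the 19 genes except Serpind1, and the signals of the lists are not scaled to each other.

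**Figure D2:**
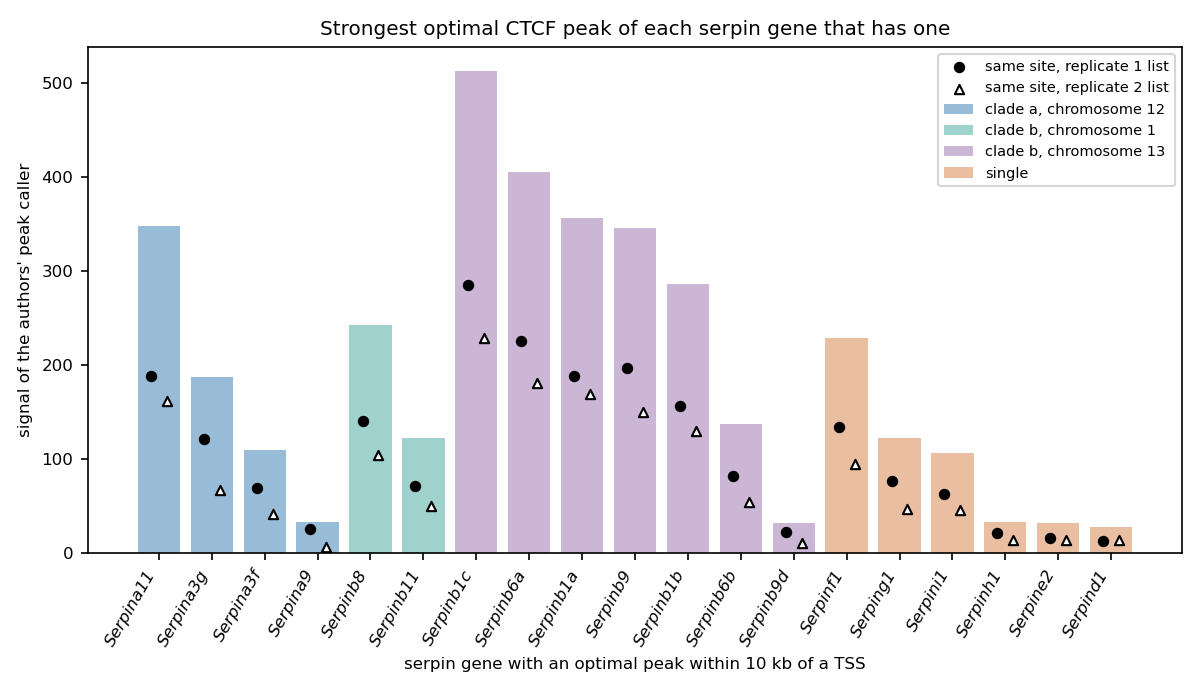
Signal of the strongest optimal peak within 10 kb of a TSS for the 19 serpin genes that have one (bars, coloured by group), with the signal at the same site in the replicate 1 list (circles) and the replicate 2 list (triangles). Serpinb1c stands highest at 513, and Serpinh1, Serpine2 and Serpind1 of the single members lie at 32.7 or less.

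The motif was present at 26 of the 36 serpin peaks (72.2%, interval 54.8 to 85.8), against 62.3% of all peaks within 10 kb of an autosomal coding TSS. For clustered members it was 21 of 26 (80.8%, interval 60.6 to 93.4), and for single members 5 of 10 (50%, interval 18.7 to 81.3). At all 26 the motif centre lay within 20 bp of the summit, as it did at 43279 of 46561 motif-bearing autosomal peaks outside chromosome 4. Over both groups, peaks with the motif had a median signal of 145 and those without it 34.5. Within each group the medians lay closer. They were 187 with the motif and 167 without it for clustered members, and 31.6 and 32.7 for single members. For all peaks within 10 kb of an autosomal coding TSS, outside chromosome 4, they were 130 and 40.5. Serpinb9 (346), Serpina3g (187) and a Serpinb6a peak near Ripk1 (167) were the strongest without it. Of the 36 peaks, 30 (83.3%, interval 67.2 to 93.6) were found in the top list of each replicate, a share of 83.1% over all autosomal peaks.

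The 3 clusters were also examined end to end, with 10 kb added on either side of the outermost genes. The clade a span on chromosome 12 (103604786 to 104424329) held 17 peaks, or 20.7 per Mb, the clade b span on chromosome 1 (106851173 to 107620484) held 16, or 20.8 per Mb, and the clade b span on chromosome 13 (32832092 to 34012794) held 24, or 20.3 per Mb. All autosomes together held 30.3 peaks per Mb, and single autosomes ranged from 23.0 on chromosome 3 to 45.9 on chromosome 11. The chromosomes of the clusters themselves held 25.008 per Mb on chromosome 12, 25.1 on chromosome 1 and 25.4 on chromosome 13, so the clusters had 0.83, 0.83 and 0.80 times the density of their own chromosome. Within 500 kb on either side, the density was 54 and 56 per Mb beside clade a, 52 and 4 beside the chromosome 1 cluster and 32 and 44 beside the chromosome 13 cluster, lower coordinates first. Of the 6 flanks, 5 were denser than the cluster they border, and the upper flank of the chromosome 1 cluster held 2 peaks and no coding gene.

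The peaks were unevenly placed along each cluster. The longest stretch without a peak in clade a ran for 267 kb, from 103710572 to 103978027, and covered 5 of the 6 Serpina1 genes. On chromosome 13 it ran for 359 kb, from 33199927 to 33559143, across Serpinb9e, Serpinb9f and Serpinb9g, and a second of 201 kb lay around Serpinb6d. On chromosome 1 it ran for 127 kb, from 107353246 to 107480112, over Serpinb11 and Serpinb7. Of the 57 peaks over the 3 spans, 31 lay farther than 10 kb from every serpin TSS, and their strongest were the 452 peak beside Serpina10 and the 411 peak between Serpinb7 and Serpinb2. The motif was present at 48 of the 57 (84.2%, interval 72.1 to 92.5), against 68.8% of autosomal peaks outside chromosome 4. The 57 include tandem copies of the same sites, described below.

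Neighbouring motif-bearing peaks of the chromosome 13 cluster mostly had the same strand, while the other clusters were nearer to the genome-wide share. On chromosome 13, 14 of 19 neighbouring pairs (73.7%) had the same strand, 3 faced each other and 2 faced apart, against 52.8% with the same strand over the autosomes outside chromosome 4. The 6 peaks at the lower end, from Serpinb1a to Serpinb1c, were all forward, and the 5 that followed, from Serpinb6b to Serpinb9d, were all reverse. Both runs include tandem copies of the Serpinb1 sites described below, so these pairs are not independent observations. In clade a, 8 of 14 pairs (57.1%) had the same strand, 3 faced each other and 3 faced apart, with 4 forward motifs in a row around Serpina11. On chromosome 1, 6 of 12 pairs had the same strand, 3 faced each other and 3 faced apart.

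**Figure D3:**
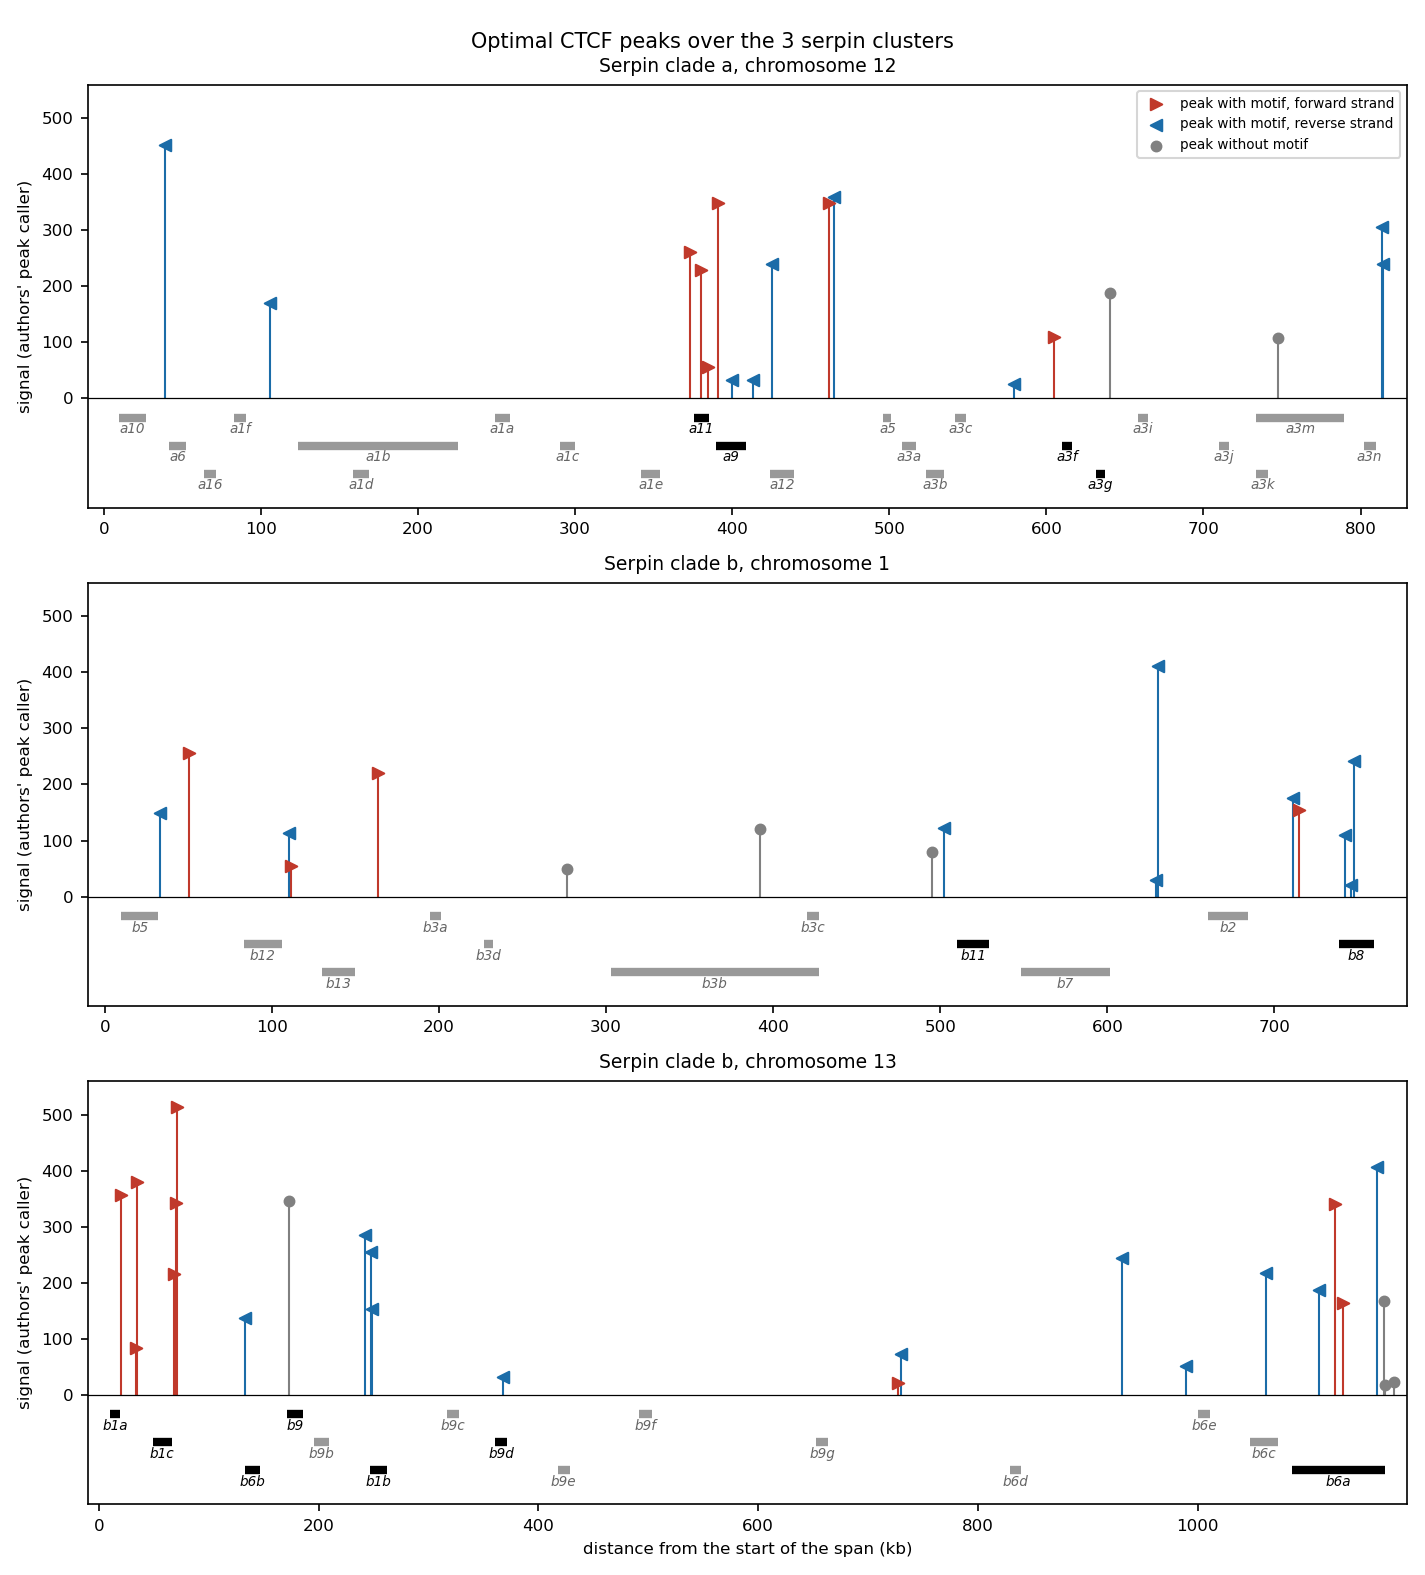
Optimal CTCF peaks over the serpin clusters of chromosomes 12, 1 and 13, with the signal of the authors' peak caller (vertical axis) against the distance from the start of the span in kb. Triangles point along the motif strand, grey circles have no motif, and bars below are gene records, black for the 13 genes with a peak within 10 kb and grey for the others. The stretch over the Serpina1 genes and that over Serpinb9e to Serpinb9g are empty of peaks for 267 and 359 kb.

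Tandem copying has left some CTCF sites of these clusters in several versions, and their binding differed by family. Copies were sought within each span as windows of 61 bp with at least 75% identity to the window around a bound motif. Around the Serpinb1 genes, 4 copies of one site and 3 of another were found, and all 7 carried both the motif and a peak. The search began at bound motifs, so each site had a bound copy by design. The Serpinb1b copy of the first site reached the cut-off only against the Serpinb1c copy, at 75.4% identity. The copies between Serpinb1a and Serpinb1c lie nearest to a pseudogene of the family, Serpinb1-ps1. The copies at Serpinb1b lie on the opposite strand, as does that gene relative to Serpinb1a and Serpinb1c.
Serpinb1a, 986 bp upstream (chr13:32852156-32852184, forward strand): cttcaTGACCACTAGGTGGCGAGCacgcc
Between Serpinb1a and Serpinb1c (chr13:32866655-32866683, forward strand): cctcaTGACCACTAGGTGGCGCGCacgcc
Serpinb1c, 4442 bp upstream (chr13:32902633-32902661, forward strand): catcaTGGCCACTAGGTGGCGGGCatgcc
Serpinb1b intron (chr13:33079636-33079664, reverse strand): cctcaTTACCACTAGGTGGCACTCatttg
These had signals of 356, 379, 342 and 254 in that order, with 188, 221, 200.0 and 161 in the replicate 1 list and 169, 159, 142 and 94.4 in the replicate 2 list. The copies are 14.5, 50.5 and 227 kb from the first. The order of the copies was not the same in the replicates, the second being highest in replicate 1 and the first in replicate 2, while the Serpinb1b copy was lowest in both.
Between Serpinb1a and Serpinb1c, second site (chr13:32865775-32865803, forward strand): tggagCATCCACTAGAGGTCACTCtggtg
Serpinb1c, 2628 bp upstream (chr13:32900823-32900851, forward strand): tgaagCAGCCACTAGAGGTCACTCtggtg
Serpinb1b intron, second site (chr13:33080503-33080531, reverse strand): tggagCATCCACTAGAGGTCACTCtggtg
The first and the last of these are identical over the 29 bases, and their signals were 82.9 and 154, with 51.4 and 77.4 in the replicate 1 list and 30.3 and 77.1 in the replicate 2 list. The Serpinb1c copy, with 2 differences from them, had 216 (116 and 99.4). The same 29 bases were thus bound at both places with signals that differed in each replicate.

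The Serpinb9 copies carried an identical motif but a peak at only 1 of 5 places. The site lies in an intron of Serpinb9d and recurs in introns of Serpinb9e, Serpinb9f, the gene record Gm11397 and Serpinb9g.
Serpinb9d (chr13:33199916-33199944, reverse strand): gctttTTACCACATGGGGGCAGTActggg
Serpinb9e (chr13:33256945-33256973, reverse strand): actttTTACCACATGGGGGCAGTActggg
Serpinb9f (chr13:33331414-33331442, reverse strand): gctttTTACCACATGGGGGCAGTActagg
Gm11397 (chr13:33401321-33401349, reverse strand): gctttTTACCACATGGGGGCAGTActagg
Serpinb9g (chr13:33492100-33492128, reverse strand): gctttTTACCACATGGGGGCAGTActagg
The motif score was 17.2 bits at each, and each copy differed from Serpinb9d at 1 of the 29 bases. Serpinb9d had a signal of 32.1 (22.2 and 10.6 in the replicate 1 and 2 lists). Serpinb9e had 12.6 in the relaxed list of both replicates (5.41 and 5.91) and was not in the optimal list, and the other 3 copies were in neither list. Reads that match several places can be lost in alignment, and how the authors treated them is not given in the sources used here. Of the 31-base words within 1 kb of the site, 85.7% occurred once in the genome at Serpinb9d, 46.1% at Serpinb9e, 15.3% at Serpinb9f, 6.90% at Gm11397 and 16.1% at Serpinb9g, and the part of this in the missing peaks was not tested.

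At the Serpina3 copies that passed the identity cut-off, the strongest peaks did not lie at those with the motif above the threshold. The Serpina3f peak of 109.7 has a similar motif sequence, at 13.4 bits, but was not among the copies found at that cut-off. A site 30.2 kb from the TSS of Serpina3f, and nearest to the pseudogene Serpina3e-ps, has 6 copies across the Serpina3 genes. Sequence at 5 of the 7 places is shown.
Serpina3e-ps, 5217 bp away (chr12:104184286-104184314, reverse strand): aaaggAAACCAGAAGAGGGTGGCTgtctg
Beside Serpina3g (chr12:104245316-104245344, forward strand): aagagAAACCAGAAGAAAGTAGCAttctg
Beside Serpina3i (chr12:104258058-104258086, forward strand): aagggAAACCAGAAGAGGGTGGCTgtctc
Beside Serpina3i, second copy (chr12:104273399-104273427, forward strand): aagagAAACCAGAAGAGGCTGGCTttctg
Serpina3m intron (chr12:104352033-104352061, forward strand): aagggAAACCAGAAGAGGCTGGCTctctg
The Serpina3e-ps and the first Serpina3i places share all 19 motif bases and a score of 11.3 bits, with a signal of 25.8 (16.6 and 8.32) at Serpina3e-ps and of 9.36 in the relaxed list (5.55 and 3.57) at Serpina3i. The Serpina3g copy scored 2.36 bits, under the threshold, and lay within 100 bp of the 187 peak. At the summit of that peak, outside the 29 bases of the copy, another sequence scored higher, at 7.47 bits, also under the threshold. The last 2 have the same motif bases and a score of 5.73 bits, and only the Serpina3m copy had a peak, of 108 (56.9 and 50.9). Within 50 bp of that summit, outside the 29 bases of the copy, another sequence scored higher, at 7.72 bits, also under the threshold. The 31-base words within 1 kb were unique at 79.0% at the Serpina3g copy, 68.1% at the Serpina3m copy and 90.9% at the second Serpina3i copy, which had no peak. The part of repetition in these differences was not tested. The 2 copies not printed scored -13.8 and -6.47 bits and were in neither list. In the Serpinb6 genes, an intronic site of Serpinb6c with a signal of 217 had 1 copy, 59841 bp from the TSS of Serpinb6d, which passed the motif threshold at 11.9 bits and was in neither list, with 95.7% of the words within 1 kb unique.

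**Figure D4:**
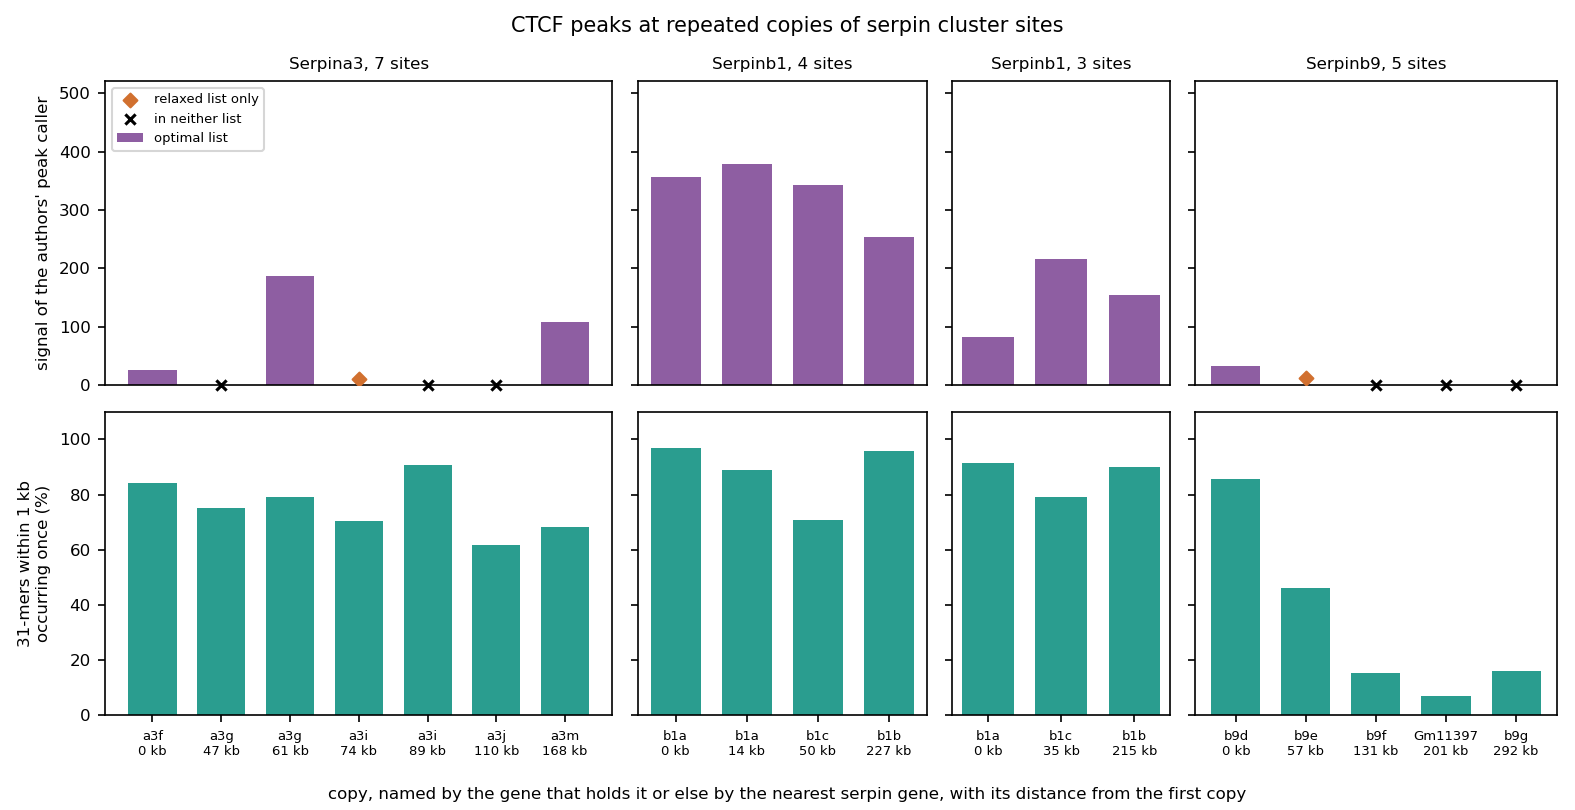
Signal of the authors' peak caller (upper row) and share of 31-base words within 1 kb that occur once in the genome (lower row, percent) at the copies of 4 repeated sites in the serpin clusters, each named by the gene that holds it or else by the nearest serpin member, with its distance in kb from the first copy. Bars above are optimal peaks, diamonds sites in the relaxed list only and crosses sites in neither. All 7 Serpinb1 copies have peaks of 82.9 to 379, and 3 of the 5 Serpinb9 copies are in neither list, where 6.90 to 16.1% of words are unique.

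Several serpin sites lie in sequence that is repeated far beyond the serpin clusters. The summits of 7 of the 36 peaks (19.4%) fell in repeat-masked bases, against 22.3% of all autosomal peaks. For those with a motif, windows within 4 mismatches of the 29 bases were counted on all autosomes. The Serpinf1 site shown above, of signal 229, had 9212 such windows elsewhere, of which 17.3% (interval 16.5 to 18.1) had an optimal peak within 100 bp. The Serpind1 site had 9306, of which 4.2% (interval 3.80 to 4.63) had one. The intronic Serpina11 site of signal 229.8 had 1199, of which 54.5% (interval 51.6 to 57.3) had one. The Serpina9 sites had 94 (71.3% with a peak, interval 61 to 80.1) and 234 (59.8%, interval 53.2 to 66.2). The Serpinb6a site of 406 had only 2, both with a peak.
Serpina11 intron (chr12:103985119-103985147, forward strand): caaggAGGCCAGAAGAGGGCACCAtatcc
Serpina9 upstream (chr12:104017941-104017969, reverse strand): caaggAGGCCAGTAGAGGGCACCAaatcg
Serpina9 intron (chr12:104004876-104004904, reverse strand): tgtagAAGCCAGAAGGGGGCGCCAgatcc
Serpind1 upstream (chr16:17328505-17328533, forward strand): cagacAAGCCAGAAGAGGGCGTCAgaacc
Both Serpina9 sites scored above the threshold by a wide margin, at 21.7 and 20.04 bits, with signals of only 33.0 and 32.2, while the Serpinf1 site had 17.4 bits and a signal of 229.

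Over all coding genes, the share with a peak rose with the share of unique sequence. Among clustered serpins, the share with a peak was higher only at the most unique level. Within 10 kb of the TSSs, the median share of 31-base words that occur once was 85.5% for clustered members (range 18.3 to 98.4), 92.8% for single members (range 89.2 to 96.1) and 92.3% for all autosomal coding genes. It was 92.6% for the 13 clustered members with a peak and 82.8% for the 36 without, and 37.7% for the Serpina1 genes. For single members it was 92.2% for the 6 with a peak and 92.9% for the 4 without. Where under 75% of words were unique, 3 of 17 clustered members (17.6%) had a peak, against 22.1% of 2551 coding genes. Between 75% and 90%, 2 of 11 clustered members (18.2%) had one, against 70.2% of 5013. At 90% or more, 8 of 21 clustered members (38.1%) and 6 of 9 single members (66.7%) had one, against 85.7% of 13243. The share of clustered members was close to that of all coding genes under 75% and below it at the levels from 75% up. The number of coding genes within 100 kb had a median of 4 for clustered members, 3 for single members and 3 for all coding genes, and median GC content was 43.1%, 44.5% and 44.9%. The part of each of these in the low serpin count was not tested.

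**Figure D5:**
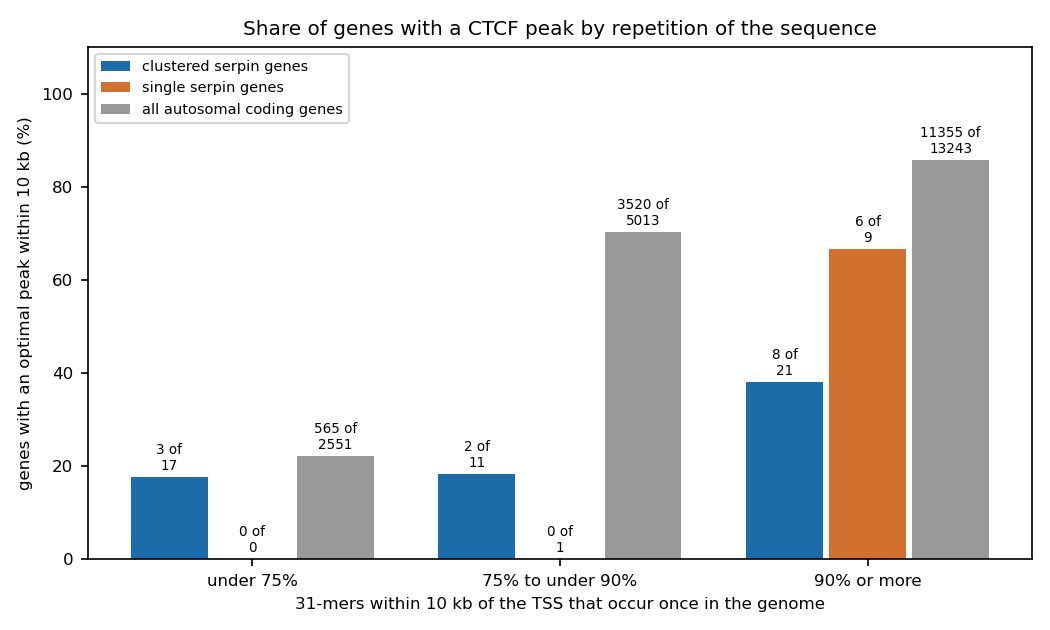
Percentage of genes with an optimal CTCF peak within 10 kb of a TSS, by the share of 31-base words around the TSS that occur once in the genome, for clustered serpin genes, single serpin genes and all autosomal coding genes, with the counts above each bar. Clustered serpins reach 38.1% in the most unique sequence, where all coding genes reach 85.7%.

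The relaxed list of both replicates, which holds 300000 peaks before the replicate filter, was used to see whether weaker sites lay beside the genes with no optimal peak. Within 10 kb, 30 of 49 clustered members and all 10 single members had at least 1 relaxed peak, against 87.7% of all autosomal protein-coding genes. The 19 clustered members with none included 4 of the 6 Serpina1 genes, Serpina6, Serpina10, Serpina16 and 3 of the 4 Serpinb3 genes. The strongest relaxed site at a member without an optimal peak was at Serpinf2, with a signal of 57.3 and a motif (34.3 and 21.9 in the replicate 1 and 2 lists). Serpinb7 had 2 such sites with a motif, of 18.9 and 11.2.

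The genes that serpins act on or with were counted for comparison, from a list of their target proteases, clients, cofactors and clearance receptors. Of the 38 found among the autosomal coding genes, 29 (76.3%, interval 59.8 to 88.6) had a peak within 10 kb, close to the 74.2% of all such genes. Of the targets of plasma serpins, Elane (neutrophil elastase) had a strongest peak of 335, Prtn3 (proteinase 3) 308 and Ctsg (cathepsin G) 223. Plat (tissue plasminogen activator), a target of Serpini1, and Plau (urokinase), a target of Serpine2, had 70.0 and 25.5. F2 (prothrombin), the target of Serpinc1, had none within 10 kb. Gzmb (granzyme B), the target of Serpinb9, also had none. Col1a1, whose collagen chain Serpinh1 folds, had a peak of 414, and Pnpla2, the lipase that binds Serpinf1, had 243.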

How the data were processed

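CTCF ChIP-seq of newborn mouse stomach was analysed from 5 deposited peak lists in mm10: relaxed lists of replicate 1, replicate 2 and both together, and the optimal and conservative lists after IDR, which keeps peaks ranked alike in replicates, per the labels' file descriptions. The deposited signal of a peak came from the peak caller of the authors. The optimal list and the relaxed list of both replicates give the same signal, within 0.00001, for each of the 74283 optimal peaks, so their signals share a scale. The replicate lists have no common scale with these or with each other. The deposited −log10 q-value of each peak was read and not used for any result. The sources used here give no aligner, caller or IDR threshold. Control libraries and read numbers are not analysed here, so the depth is unknown. The optimal list held 74283 peaks on chromosomes and the conservative list 72171.

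The symbol rule finds 60 genes, of which 1 single member is not reported here and is left out of every serpin count. The serpin members, the groups and the list of partner genes were chosen with earlier results of these data known. TSSs were the starts of all GENCODE M21 transcripts of a gene. Every single member is named, every clustered member with a peak within 10 kb is named with its peaks, and the others are named by group. A motif matrix of 19 positions was aligned on 996 of the 1000 strongest peaks of chromosome 4, with thresholds from 100000 random windows. A peak was found in both replicates when a summit of the 74283 strongest peaks of each lay within 100 bp. Repetition was measured over 1 in 16 of all 31-base words on the chromosomes. Shares carry exact Clopper-Pearson 95% intervals, which cover counting error only. No test was made, since there is 1 group. The work used scipy 1.17.1, numba 0.67.0, matplotlib 3.10.9, pandas 2.3.3 and numpy 2.4.6 under Python 3.11.15. The counting, motif, repetition and copy steps were tested on simulated data. Alternatives were other distances, lists, replicates, TSS definitions, motif thresholds, search windows, matrices and summit distances.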

Additional observations from a re-analysis of the deposited data

Results flagged for a closer look

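Near the 59 serpin genes, 17 sites of the relaxed list of both replicates carried the CTCF motif although no optimal summit lay within 300 bp, and they drew attention because the main comparisons do not use that list. They were 17 of 105 such relaxed sites (16.2%, exact interval 9.72 to 24.7), against 14.6% of such sites on all autosomes outside chromosome 4. The strongest, at Serpinf2, had a signal of 57.3. In both replicate lists were 23 of the 105, and this was not counted over all autosomes, so it has no comparison.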

How the results depend on the processing

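Of 52 alternative values, 43 stayed within 1.5 times the reported count or within the interval of the reported share, and 9 did not. The distance to the TSS moved the counts most. Within 1 kb, 5 kb, 25 kb and 50 kb the serpin genes with a peak numbered 9, 14, 36 and 51 of 59, or 15.3%, 23.7%, 61% and 86.4%, against 47.0%, 64.9%, 84.4% and 89.6% of all autosomal coding genes. For clustered members the counts at 1 kb, 25 kb and 50 kb were 5, 28 and 42 of 49, and 4 of 10 single members had a peak within 1 kb. With the strongest 37141 peaks alone, 3 of 10 single members and 23.7% of all serpin genes had a peak, against 57.25% of all autosomal coding genes. With the stricter motif threshold, met by 0.1% of random windows, 44.4% of the 36 serpin peaks had the motif. With the whole relaxed list of each replicate, 94.4% of them were found in both. Leaving out either replicate gave 20 to 21 serpin genes, 13 to 14 clustered and 7 single. Of all autosomal coding genes, 74.7% had a peak without replicate 2 and 73.8% without replicate 1. The clade a, chromosome 1 and chromosome 13 spans then held 15 to 20, 15 to 19 and 22 to 23 peaks. TSSs of protein-coding transcripts alone, an alternative chosen after seeing the data, gave 18, 13 and 5 genes. No paired analysis was possible because there is 1 group and no test. Depth is unknown, so a missing peak is not shown to be absence of CTCF.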
